A study of Macaca fascicularis with 2 samples.

Results

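The genes described here are 10 effectors of the integrated stress response in gastrocnemius, a calf muscle, of the cynomolgus macaque (Macaca fascicularis). They were chosen by name as factors and targets of the ATF4 pathway, together with the stress hormones FGF21 and GDF15, and are 10 of the 28175 genes in the files. All 10 were found in both libraries, and their values are the sum of the estimated counts over the transcript models of each gene. Polyadenylated RNA was sequenced in 1 library per group, lean on a chow diet and non-lean on a high fat diet, called lean and non-lean muscle below. The labels give no age, sex, genotype or duration of diet, and do not say whether a library came from 1 animal or from a pool. The comparison asks which genes differ between lean and obese muscle. With 1 library per group no difference has a replicate check, no p-value is given, and each ratio compares these 2 libraries, in which diet, body condition, animal and library preparation cannot be told apart. Brackets after a log2 ratio hold its 95% counting interval, which covers counting error only.

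In the integrated stress response, kinases that sense amino acid shortage, endoplasmic reticulum stress, viral RNA or haem and mitochondrial faults phosphorylate the translation initiation factor eIF2. General protein synthesis then slows, while translation of the ATF4 message increases, and ATF4 protein switches on genes for amino acid synthesis and import, feedback inhibitors and other stress factors. In muscle with mitochondrial disease the same pathway is known for secretion of FGF21 and GDF15, which act on metabolism and appetite. Because ATF4 is regulated largely at translation, its mRNA level is not a measure of ATF4 protein.

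The 10 genes did not share 1 direction. In non-lean muscle ATF5, NUPR1 and GDF15 were 2-fold or more below lean muscle, ASNS was 3.51-fold higher, ATF4 was 1.53-fold lower, and DDIT3 and SESN2 were 1.63-fold and 1.61-fold higher. CHAC1 had an interval that held 0, and TRIB3 and FGF21 had too few counts for a fold. Genes with a mean scaled CPM (counts per 1000000 counts, after trimmed mean of M-values scaling of the library sizes) of at least 1 are called tested genes, and 8 of the 10 genes passed. A gene is called when it is at least 2-fold apart and its interval excludes 0. By that rule 1 of the 8 was called higher, where 4.91% of all 13707 tested genes were, and 3 of the 8 were called lower, where 7.16% of all tested genes were. The 1 called higher was ASNS, at 0.789 CPM in lean and 2.84 in non-lean muscle. It passed the cutoff only through the non-lean library, so its call is tied to the filter. Intervals lay above 0 for 3 of the 8, against 25.8% of all tested genes, and below 0 for 4, against 28.8%. The median log2 ratio of the 8 was -0.39, and that of all tested genes was -0.01, with quartiles of -0.39 and 0.34. With total counts and with median-of-ratios size factors the 7 intervals that excluded 0 stayed on the same side of it, but GDF15, close to the 2-fold bound, was no longer called with total counts.

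**Figure D1:**
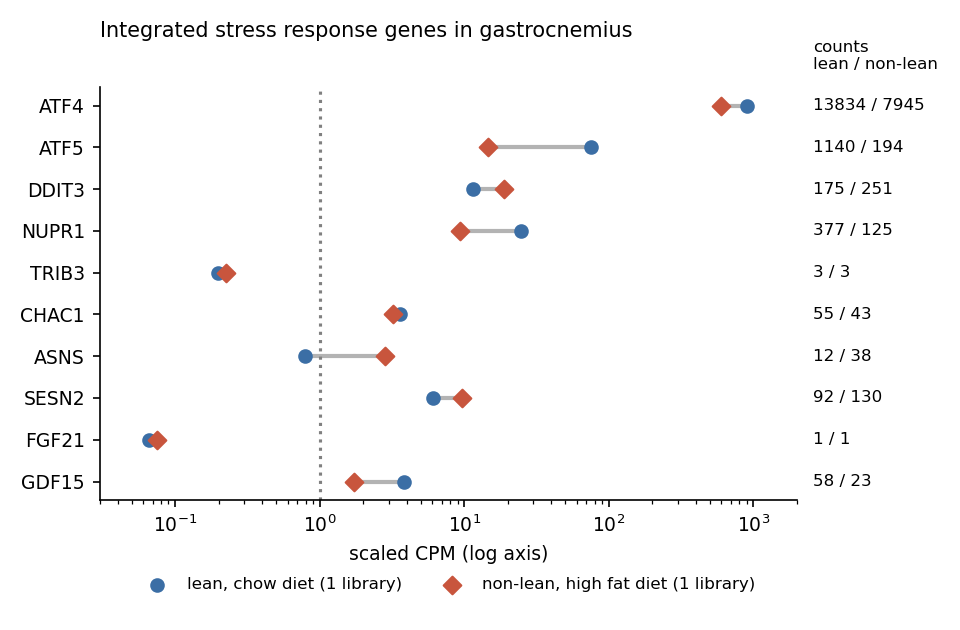
Scaled CPM (log axis) of the 10 genes in the lean library (circles) and the non-lean library (diamonds), 1 library each, with the counts at the right and a dotted line at the CPM of 1 used as cutoff. The widest gap toward the lean library is that of ATF5, at 74.9 and 14.5 CPM, while TRIB3 and FGF21 lie left of the cutoff in both libraries.

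Among the nuclear factors, ATF4, the basic leucine zipper (bZIP) factor at the centre of the pathway, had 13834 counts in lean and 7945 in non-lean muscle. Its scaled CPM was 909 and 594, a log2 ratio of -0.61 [-0.65, -0.57]. The interval excluded 0, but the gene was short of the 2-fold bound, and 16.0% of tested genes had a lower ratio. ATF4 has 1 transcript model in the files, so its value does not depend on how reads were divided among models of the gene. The estimated counts of 13833.91 and 7944.58 were not whole, as happens where some reads also match another gene.

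ATF5, a bZIP factor related to ATF4 and linked to the response to misfolded proteins in mitochondria, had 1140 counts in lean and 194 in non-lean muscle. These are 74.9 and 14.5 scaled CPM, a 5.15-fold lower level in non-lean muscle and a log2 ratio of -2.37 [-2.60, -2.15]. Only 100 of the 13707 tested genes, 0.73%, had a lower ratio. Set against ATF4 within each library, which removes the scaling between libraries, there were 82.4 ATF5 counts per 1000 ATF4 counts in lean and 24.4 in non-lean muscle. In the RefSeq gene table (assembly T2T-MFA8v1.1, which may differ from the build behind the files) ATF5 overlaps NUP62, a nuclear pore gene, and IL4I1, an amino acid oxidase. NUP62 had 498 and 276 counts, a log2 ratio of -0.66 [-0.88, -0.45], and IL4I1 had 21 and 23. The protocol names no step that keeps the strand of the RNA, so reads from the shared stretches cannot be assigned by strand.

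DDIT3, which encodes CHOP, a bZIP factor tied to cell death under lasting endoplasmic reticulum stress, went the other way. It had 175 counts in lean and 251 in non-lean muscle, or 11.5 and 18.8 CPM. The log2 ratio was 0.71 [0.42, 0.99], and 89.9% of tested genes had a lower one. Per 1000 ATF4 counts there were 12.6 DDIT3 counts in lean and 31.6 in non-lean muscle. In the same gene table DDIT3 overlaps MARS1, the methionyl-tRNA synthetase, whose log2 ratio was -0.06 [-0.20, 0.07] at 969 and 814 counts. It also overlaps a locus without a name that was not analysed here.

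NUPR1, a small nuclear protein induced by many stresses, had 377 counts in lean and 125 in non-lean muscle. Its scaled CPM was 24.8 and 9.35, which is 2.64-fold lower in non-lean muscle at a log2 ratio of -1.40 [-1.71, -1.11]. A lower ratio was found for 3.36% of tested genes. Thus 3 of the 4 nuclear factors were lower in non-lean muscle and DDIT3 was higher, each with an interval that excluded 0.

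**Figure D2:**
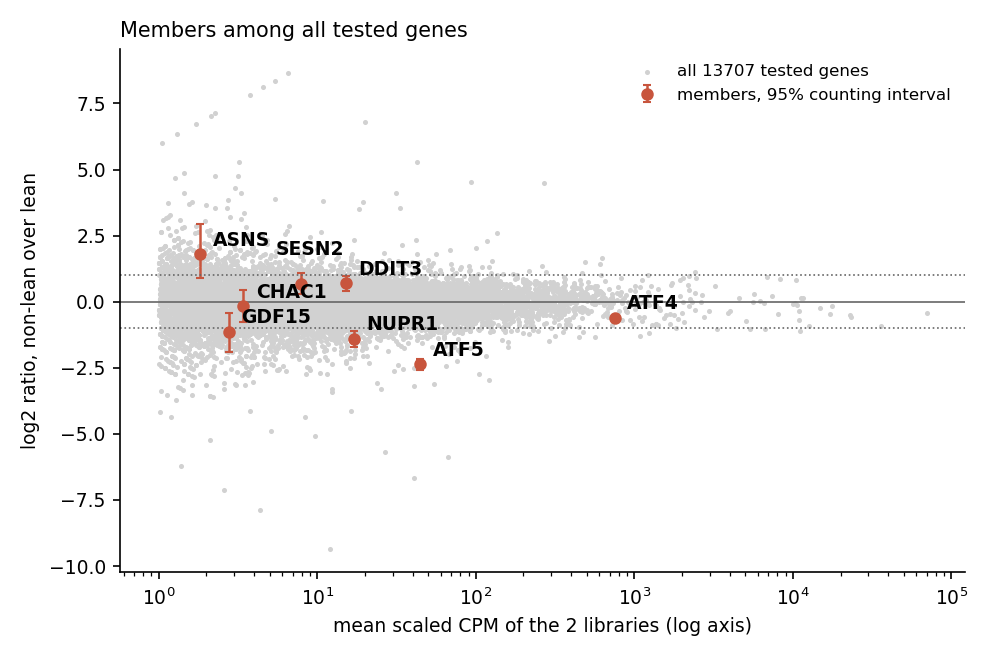
Log2 ratio of non-lean over lean muscle against the mean scaled CPM of both libraries (log axis), with all 13707 tested genes in grey, the 8 tested members with their 95% counting intervals, and dotted lines at 2-fold. ATF5 at -2.37 has 100 of the tested genes below it, and the intervals widen toward ASNS, CHAC1 and GDF15 at the left, which have few counts.

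Of the effectors, ASNS, which makes asparagine from aspartate and is a classical ATF4 target, had 12 counts in lean and 38 in non-lean muscle. This is 0.789 and 2.84 CPM, 3.51-fold higher in non-lean muscle, with a log2 ratio of 1.81 [0.88, 2.92]. Among tested genes 98.9% had a lower ratio. The value rests on 50 counts in all, and the lower end of the interval falls short of 2-fold.

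SESN2, a leucine sensor that holds back the growth kinase complex mTORC1, had 92 counts in lean and 130 in non-lean muscle, or 6.05 and 9.72 CPM. The log2 ratio was 0.68 [0.29, 1.09], and 89.4% of tested genes had a lower one. SESN2 and DDIT3 thus had near-equal ratios, with intervals that overlap.

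CHAC1, an enzyme that breaks down glutathione, had 55 counts in lean and 43 in non-lean muscle. At 3.61 and 3.22 CPM its log2 ratio was -0.16 [-0.78, 0.43]. At this depth no difference was detectable. TRIB3, a pseudokinase that binds ATF4 and damps the response, had 3 counts in each library. This is at the floor of 3 counts, or 0.197 CPM in lean and 0.224 in non-lean muscle, so no fold is given.

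The hormones differed in how well they could be measured. GDF15, a circulating hormone that reduces food intake through a receptor in the hindbrain, had 58 counts in lean and 23 in non-lean muscle. Its scaled CPM was 3.81 and 1.72, a log2 ratio of -1.13 [-1.91, -0.43], which is 2.19-fold lower. Scaled by total counts the ratio was -0.99, short of the 2-fold bound, so that only 2 members were called lower. FGF21, a fasting and stress hormone made mainly by the liver, had 1 count in each library. A level below 3 counts cannot be told from 0 at this depth, and no comparison of FGF21 was possible.

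The division of reads among transcript models differed between the libraries for several of these genes. Models are numbered here in the order of their accessions in the files. SESN2 has 2 models, and all 92 lean counts fell on the second, while in the non-lean library the first had 105.7 estimated counts and the second 24.3. The first model thus held 0% of the lean SESN2 counts, with an upper limit of 3.93%, and 81.5% (95% Clopper-Pearson interval 73.8 to 87.8) of the non-lean counts. The sum over models was higher in non-lean muscle, but the second model alone, which leads over both libraries, was lower at a log2 ratio of -1.73. The direction given for SESN2 therefore holds for the gene as a whole and not for each model.

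Such changes of leading model were not rare in these files. Of 6594 tested genes with several models and at least 50 counts in each library, the leading model differed between the libraries in 25.1%. In 7.76% a model with over 50% of the counts in 1 library was at 0 in the other, as for SESN2. Whether reads were sequenced from one end or from both is unclear, since the labels' protocol mentions each format without saying which libraries had it. The accuracy of the division among models, and the part of read layout in it, was not tested.

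DDIT3 has 4 models. The first held 62.3% of its counts (54.7 to 69.5) in lean and 86.1% (81.1 to 90.1) in non-lean muscle. The second had 48.62 estimated counts in lean and 0 in non-lean muscle. With the first model alone the log2 ratio of DDIT3 was 1.17, past the 2-fold bound.

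For ATF5 both models were lower in non-lean muscle, from 354.15 to 33.14 estimated counts for the first and from 785.47 to 160.72 for the second. Both NUPR1 models were also lower, from 159.8 to 35.4 and from 217.2 to 89.6. The direction of ATF5 and NUPR1 was therefore the same in each of their models. Of the 6 ASNS models, the second held all 12 lean counts and 31.68 of the 38 non-lean counts, and the sixth held the other 6.32.

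**Figure D3:**
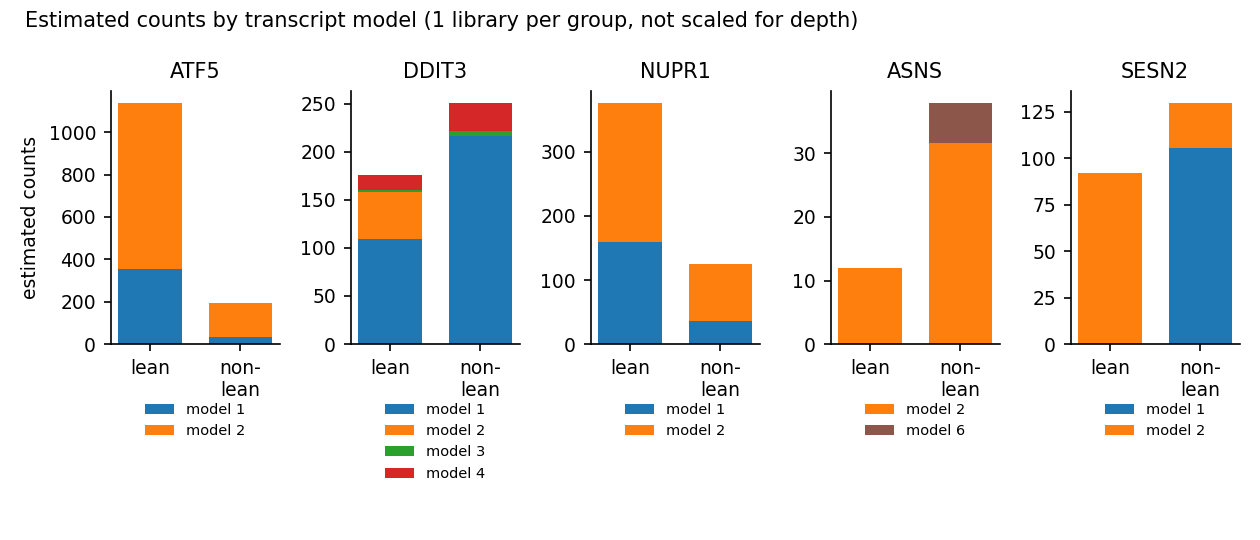
Estimated counts per transcript model, stacked, in the lean and the non-lean library for the 5 genes with several models and more than the floor of counts, not scaled for depth. Both models of ATF5 and NUPR1 are smaller in the non-lean library, whereas SESN2 passes from the second model in the lean library to mainly the first, with 105.7 estimated counts, in the non-lean library.

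The other genes of the pathway were looked up from 12 lists, with 103 tested genes. Of these, 2 were called higher and 6 lower, or 1.94% and 5.83%, where 4.91% and 7.16% of all tested genes were. At a mean CPM of at least 5, 2.3% of 87 pathway genes were called higher, near the 2.4% of all tested genes. With total counts 6 of 103 were called higher, or 5.83%, where 6.78% of all tested genes were. The median log2 ratio of the 103 was -0.06.

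Each of the 4 kinases that start the response had an interval that held 0. EIF2AK1, the haem-sensing kinase, had 195 and 181 counts and a log2 ratio of 0.08 [-0.22, 0.38]. EIF2AK2, which senses double-stranded RNA, was at -0.43 [-1.33, 0.41], EIF2AK3, the kinase of the endoplasmic reticulum, at -0.09 [-0.66, 0.46], and EIF2AK4, the amino acid sensor, at -0.20 [-0.47, 0.07]. The other 3 genes of that list had intervals below 0. GCN1, which activates EIF2AK4, was at -0.44 [-0.56, -0.32], OMA1, a protease that signals mitochondrial stress, at -0.56 [-1.04, -0.11], and its substrate DELE1 at -0.26 [-0.37, -0.16]. OMA1 held 0 with total counts. The 13 tested genes of eIF2, eIF2B and the eIF2 phosphatase went both ways, with a median of -0.04. Intervals lay above 0 for 4 and below for 3, or for 5 and 2 with total counts. Among them PPP1R15A, the inducible subunit of the eIF2 phosphatase and itself an ATF4 target, was lower at -0.38 [-0.54, -0.22], with 806 and 545 counts. Its constitutive counterpart PPP1R15B was at -0.11 [-0.42, 0.20].

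Most bZIP partners of ATF4 were lower, as ATF4 was. Of 10 tested, 8 had intervals below 0 and 1 above, where 28.8% and 25.8% of all tested genes did, and their median was -0.56. Scaled by total counts, 6 lay below and 2 above, where 20.9% and 35.0% of all tested genes did. CEBPB had 4538 and 2647 counts and a log2 ratio of -0.59 [-0.66, -0.52], and ATF3 had 554 and 328 and a ratio of -0.57 [-0.77, -0.37]. CEBPG was at -0.13, with 1152 and 927 counts. FOS, an immediate early gene, was the 1 member of the list called, at 1059 and 164 counts and a log2 ratio of -2.50 [-2.75, -2.27].

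Genes of amino acid supply, where ASNS belongs, went both ways. Of 6 tested genes of serine, glycine, one-carbon and proline synthesis, PHGDH, the first enzyme of serine synthesis, was called lower at -1.37 [-2.35, -0.53] with 45 and 15 counts. Of 7 tested amino acid transporters, SLC7A5, which imports leucine and other large amino acids, was called higher at 1.06 [0.82, 1.31], and SLC7A1, a carrier of cationic amino acids, was called lower at -2.19 [-3.47, -1.22]. None of the 11 tested aminoacyl-tRNA synthetases was called, where 4.91% of all tested genes were called higher and 7.16% lower. Their ratios ran from -0.48 to 0.27.

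The list of 8 other ATF4 targets had a median of -0.67, with 5 intervals below 0 and 1 above, where 28.8% and 25.8% of all tested genes were. Scaled by total counts, 5 lay below and 3 above, where 20.9% and 35.0% of all tested genes did. Relative to the median of tested genes, the list median was -0.66, and -0.22 with the leading transcript model. Beside the called genes, VLDLR, GADD45A and DDIT4 were at -0.87, -0.94 and -0.47. The remaining genes of the list, STC2 at 1.03 [-0.02, 2.21] and XPOT at 0.16 [-0.08, 0.41], went the other way with intervals that held 0. With total counts both of these intervals lay above 0, and STC2 was called higher. STC2 had 12 and 22 counts. EIF4EBP1, which blocks cap-dependent translation, was called higher at 1.10 [0.96, 1.25]. The cell cycle inhibitor CDKN1A and the ubiquitin ligase adaptor KLHL24 were called lower at -1.22 and -1.04, the latter not with total counts. None of the 17 genes of the endoplasmic reticulum chaperone arm and none of the 8 mitochondrial chaperones and proteases was called, with medians of 0.05 and 0.00. Of all tested genes 4.91% were called higher and 7.16% lower, and lists this small can hold 0 calls at those shares. With total counts 1 chaperone arm gene was called higher. Intervals in that arm then lay above 0 for 10 and below for 2, and for 5 and 1 of the mitochondrial list. The shares of all tested genes were 35.0% and 20.9%. None of 6 paralogs of the members was called either. Among them, named after their values were seen, SESN1 and SESN3 were at 0.14 and -0.81, beside 0.68 for SESN2.

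The receptors through which the hormones act were also read. FGFR1, the main FGF21 receptor kinase, had 778 and 460 counts and a log2 ratio of -0.57 [-0.74, -0.40]. KLB, the co-receptor that FGF21 needs, had 1 and 6 counts, and GFRAL, the GDF15 receptor, had 0 and 4, both below the cutoff. Of 7 upstream factors of FGF21, the nuclear receptor partner RXRA was called lower at -1.17 [-1.26, -1.09]. In that list 4 intervals lay below 0 and 2 above, where 28.8% and 25.8% of all tested genes did. MLXIPL, at 0.88 [0.65, 1.11], was called higher with total counts.

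**Figure D4:**
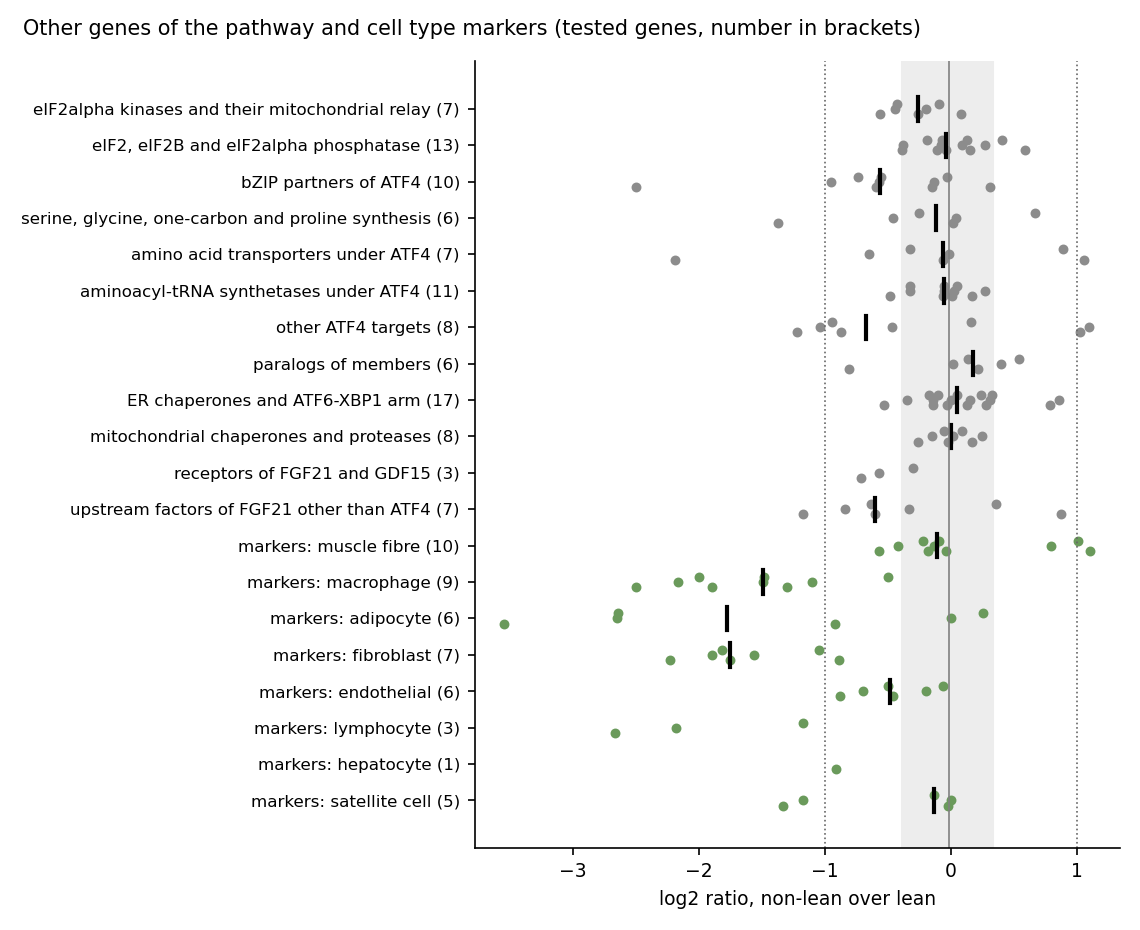
Log2 ratio of each tested gene in the 12 pathway lists (grey points) and 8 marker lists (green points), with the number of tested genes in brackets, a black bar at the median of lists with at least 5, a grey band from the lower to the upper quartile of all tested genes and dotted lines at 2-fold. The chaperone, synthetase and kinase lists lie between the dotted lines, and the macrophage and fibroblast markers have medians of -1.49 and -1.75.

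Several facts of these libraries stand beside the values above. The lean library held 15983348 counts and the non-lean library 12731974. All 10 muscle fibre markers were detected in both, at a summed scaled CPM of 185000 and 157000. Of these, 2 were called higher in non-lean muscle and 0 lower, where 4.91% and 7.16% of all tested genes were. The 2 called were the slow fibre genes TNNT1 at 1.11 and MYL3 at 1.01, the latter not called with median-of-ratios size factors. Most fibre markers went the other way, with 7 intervals below 0, 3 above and a median of -0.11. CKM and ACTA1 were lowest, at -0.57 and -0.42. Scaled by total counts, 4 fibre marker intervals lay below 0 and 5 above. Macrophage markers summed to 127 and 37.6 CPM, with 8 of 9 tested called lower, where 7.16% of all tested genes were. Fibroblast markers summed to 1030 and 437 CPM with 6 of 7 called lower, and adipocyte markers to 221 and 176 CPM with 3 of 6 called lower. With total counts 7 macrophage, 5 fibroblast and 3 adipocyte markers were called lower, where 5.33% of all tested genes were. The adipocyte markers were mixed, with FABP4 at 0.26 [0.05, 0.47] and CFD at 0.00 [-0.10, 0.10]. Of the adipocyte markers called lower, ADIPOQ and CIDEC passed the cutoff only through the lean library, at 0.224 and 0.972 CPM in non-lean muscle. Lymphocyte markers summed to 14.8 and 4.64 CPM, and only 3 of 8 were tested. These were CD4, JCHAIN and PTPRC, and all were called lower. JCHAIN and PTPRC passed the cutoff only through the lean library, so their calls are tied to the filter. The T cell genes CD3E, CD3D and CD2 were not tested. They had 14 and 11, 7 and 6, and 7 and 4 counts, with intervals that held 0. The B cell genes MS4A1 and CD79A were at 0 in both libraries. Endothelial markers summed to 238 and 177 CPM with 0 of 6 called. Their median was -0.48, and 5 of the 6 intervals lay below 0, or 3 with total counts. Satellite cell markers summed to 158 and 124 CPM with 2 of 5 called lower. Hepatocyte markers had few counts, 3.88 and 2.24 CPM in sum. ALB, APOA2, TTR and FGB had between 11 counts and 1 in lean and 0 in non-lean muscle, while APOA1 had 4 and 12. ATF5, NUPR1 and GDF15 were lower along with most macrophage and fibroblast markers and some adipocyte markers, and the part of these cells in their ratios was not tested. In bulk tissue, fewer cells of a type and less RNA per cell cannot be told apart.

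Ratios also moved with gene span. Tested genes were put into 5 equal bins by their span in the RefSeq table. The median log2 ratio was 0.15 in the bin of shortest and -0.20 in the bin of longest genes. ATF4, ATF5, DDIT3, NUPR1, CHAC1 and GDF15 belong to the shortest bin, and ASNS and SESN2 to the middle one. Relative to the median of their own bin, a comparison added after the data were seen, ATF4 was at -0.76, ATF5 at -2.52, NUPR1 at -1.55, CHAC1 at -0.32 and GDF15 at -1.28, while DDIT3 was at 0.56, nearer to 0 than its 0.71. ASNS and SESN2 were at 1.82 and 0.70.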

How the data were processed

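The deposited files hold expected counts, estimated reads per RefSeq transcript with a gene symbol, per the file headers. RSEM 1.3.3, STAR 2.7.8a and Trim Galore 0.6.6 are listed, without roles, per the submitters' processing notes, and the genome build is not given in the sources used here. Estimated counts were summed per symbol and rounded. The 24 symbols that had become dates were separated by transcript. Libraries were scaled in edgeR 4.0.16 (R 4.3.3) by the trimmed mean of M-values, with factors of 0.952 and 1.05, and ratios took a prior count of 0.5 in Python 3.11.15, numpy 2.4.6, pandas 2.3.3 and scipy 1.17.1. Figures were drawn with matplotlib 3.10.9. Intervals are exact Clopper-Pearson intervals of the split of the summed count, and cover counting error only, since PCR copies are not told apart here. The calling step was tested on simulated counts that held counting error only, with changes well above 2-fold. Spread between animals, and changes near 2-fold or in genes of low count, were not covered. For the lists, 13 genes were found under older symbols or gene numbers, and 4 were not matched by symbol. All members are named, with the called genes of each pathway list and a fixed set of kinases, partners and receptors. GCN1, OMA1, DELE1, VLDLR, GADD45A, DDIT4, STC2, XPOT, SLC38A2, MLXIPL and the markers were added after their values were seen. The members and lists were chosen with earlier results of these data known. Alternatives were total counts, DESeq2 1.42.0 size factors, a prior of 2, the leading transcript model, other filters and a 1.5-fold bound.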

Additional observations from a re-analysis of the deposited data

How the results depend on the processing

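No replicate could be left out with 1 library per group, and the planned promoter motif and protein comparisons were not run, as their sequences were not used here. Of 40 recomputed member ratios 34 stayed within the counting interval of the value reported, and SESN2 alone changed sign, at -1.73 with the leading transcript model. That setting also gave -2.10 for ATF5, 1.17 for DDIT3 and -1.08 for NUPR1. ATF4 was at -0.47 with total counts and at -0.76 relative to genes of like span, the latter added after seeing the data. With the leading model 2 of 8 tested members were called higher and 4 lower, where 9.22% and 12.7% of all tested genes were. SESN2 was among those called lower. At a mean CPM of at least 5, ASNS was no longer tested. There 0 of 5 tested members were called higher and 2 lower, beside 2.4% and 5.05% of all tested genes. At 1.5-fold 3 of 8 were called higher and 4 lower, beside 11.9% and 15.4% of all tested genes. Pathway genes called higher numbered 6 with total counts, or 5.83%, where 6.78% of all tested genes were. With the leading model they numbered 4, or 3.92%, where 9.22% of all tested genes were. At 1.5-fold they numbered 7, or 6.8%, where 11.9% of all tested genes were. At that bound 16 of 103 were called lower, where 15.4% of all tested genes were. The median of the paralogs of members, relative to tested genes, turned to -0.22 with the leading model. Total counts moved the median of all tested genes by 0.14, and the genes called went from 673 higher and 982 lower to 931 and 732. With the leading model they were 1225 and 1683. Depth limits TRIB3, FGF21, ASNS and GDF15 most.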
